A study of Mus musculus with 6 samples.

Results

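The small nucleolar RNAs (snoRNAs) of neural progenitor cells (NPCs) were examined in embryos with and without Ybx1, a nucleic acid-binding protein that takes part in RNA processing and stability. They were taken as the gene symbols that start with Snord or Snora followed by a digit and that held 10 or more counts summed over all 6 libraries. Of 138 such symbols, 50 met this limit, made up of 36 of 98 Snord genes (box C/D) and 14 of 40 Snora genes (box H/ACA). The choice of members was made with earlier results of these data known. Among these symbols the members were chosen by their summed counts, and the count limit itself made no use of the genotype labels. The control libraries were deeper, however, and so weighed more in these sums. In the controls alone 19 members reached 10 counts, and in Ybx1-KO alone 3 did. The controls were 3 libraries, named A, B and C here, from wildtype embryos, which the authors describe as sibling controls. Libraries D, E and F, also 3, came from embryos of genotype YBX1KO, homozygous for the constitutive null allele Ybx1tm1Ley. The authors describe the Ybx1 mice as back-crossed to C57BL/6, while the listed reporter stock is of mixed background. All embryos were at E13.5 and carried the Sox2-eGFP reporter Sox2tm1Hoch, which marks Sox2-expressing cells. Cells positive for the reporter were sorted from dissected neural tubes, and stranded total RNA libraries were sequenced. The allele is null in every tissue and not in the neural tube alone, and such embryos are known to develop exencephaly. The sample titles give A and B one shared number, and D and E another, without saying what it marks. If it is a litter, the libraries of a group are not all independent, so the p-values measure only the spread between these libraries. No number in the titles is shared between the genotypes. If it marks a litter, litter and genotype cannot be told apart in the numbered libraries.

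Small nucleolar RNAs guide the chemical modification of other RNAs, chiefly ribosomal RNA, in the nucleolus. A C/D snoRNA binds Fbl, Nop56, Nop58 and Snu13 and pairs with its target to place a methyl group on a ribose, whereas an H/ACA snoRNA binds Dkc1, Gar1, Nhp2 and Nop10 and directs the conversion of uridine to pseudouridine. A few of them act instead in the cleavage of the ribosomal precursor. In mammals most are cut out of the introns of host genes, many of which encode ribosomal proteins or translation factors, so that a member and its host start from one transcript.

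The sequences below are those of the members with 30 or more counts whose libraries did not overlap between the genotypes and of the most abundant member of each class, and they show the elements that define the classes. They are the GENCODE M21 transcripts on GRCm38, written 5′ to 3′ as DNA. Snord61 lies at chrX:57391449-57391519 and Snord17 at chr2:144265979-144266216, both on the minus strand, and Snord91a at chr11:74905424-74905516 and Snord118 at chr11:69073427-69073561, both on the plus strand. In the first set, all C/D, capitals mark the C box motif TGATGA in the first 30 bases, where it was found, and the last D box motif CTGA in the last 20 bases.
Snord61: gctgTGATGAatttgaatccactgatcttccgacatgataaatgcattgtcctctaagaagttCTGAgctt
Snord17: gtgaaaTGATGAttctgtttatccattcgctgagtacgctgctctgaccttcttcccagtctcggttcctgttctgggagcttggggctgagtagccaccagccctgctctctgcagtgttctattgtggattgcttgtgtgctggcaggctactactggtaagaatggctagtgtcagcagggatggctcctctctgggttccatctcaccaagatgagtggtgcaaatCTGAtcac
Snord91a: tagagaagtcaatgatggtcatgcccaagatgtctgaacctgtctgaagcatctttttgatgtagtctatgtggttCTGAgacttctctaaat
Snord118: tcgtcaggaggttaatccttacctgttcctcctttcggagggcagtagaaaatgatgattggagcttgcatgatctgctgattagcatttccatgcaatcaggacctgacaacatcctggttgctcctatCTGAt
The second set holds Snora57 (chr19:8888538-8888685), Snora73b (chr4:132352322-132352526) and Snora17 (chr2:26639190-26639321) on the minus strand and Snora41 (chr1:63179004-63179135) and Snora23 (chr7:110046364-110046547) on the plus strand. In this set, all H/ACA, capitals mark one match to the H box pattern ANANNA near the middle and the last ACA in the final 12 bases.
Snora57: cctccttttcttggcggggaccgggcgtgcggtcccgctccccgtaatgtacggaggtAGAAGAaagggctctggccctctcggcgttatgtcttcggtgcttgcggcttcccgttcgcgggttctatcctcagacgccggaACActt
Snora73b: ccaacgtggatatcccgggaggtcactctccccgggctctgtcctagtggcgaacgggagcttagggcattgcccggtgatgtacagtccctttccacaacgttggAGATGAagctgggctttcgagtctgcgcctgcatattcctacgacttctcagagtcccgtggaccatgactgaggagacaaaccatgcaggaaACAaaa
Snora17: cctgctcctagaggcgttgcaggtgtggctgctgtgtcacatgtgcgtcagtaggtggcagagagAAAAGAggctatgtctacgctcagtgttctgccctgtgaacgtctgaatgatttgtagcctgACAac
Snora41: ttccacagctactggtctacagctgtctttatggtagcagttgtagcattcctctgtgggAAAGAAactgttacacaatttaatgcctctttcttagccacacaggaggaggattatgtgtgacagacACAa
Snora23: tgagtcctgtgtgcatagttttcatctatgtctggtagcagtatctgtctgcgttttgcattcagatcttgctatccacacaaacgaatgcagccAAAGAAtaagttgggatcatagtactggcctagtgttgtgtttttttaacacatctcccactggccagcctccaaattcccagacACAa

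On the sense strand, TGATGA was present in the first 30 bases of 24 of the 36 Snord members (66.7%) and of 0 of the 14 Snora members, against 71 of all 98 Snord symbols (72.4%). The D box motif CTGA lay in the last 20 bases of 35 Snord members and of 2 Snora members, against 96 of all 98 Snord symbols. All 14 Snora members ended with ACA in the last 12 bases, against 38 of all 40 Snora symbols and 5 of the 36 Snord members. A match near the middle to ANANNA, a loose pattern, was found in 13 Snora and in 22 Snord members. The elements at the 3′ end thus went with the class in nearly every member, whereas both TGATGA and CTGA were found in 23 of the 36 Snord members. In Snord91a and Snord118 the exact letters TGATGA did not occur in the first 30 bases.

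Library depth differed between the genotypes. The controls held 20841990 to 23883542 counts on genes and the Ybx1-KO libraries 4743279 to 13321952, so that 3 counts stood for 0.140 to 0.152 CPM (counts per 1000000 counts on genes, scaled by TMM) in controls and for 0.312 to 0.426 in Ybx1-KO. Of the 50 members, 47, 44 and 43 had at least 1 count in A, B and C and 31, 36 and 31 in D, E and F. The member counts were 1032, 781 and 1013 in the controls and 809, 445 and 370 in D, E and F, so the controls gave most of the counts on which membership rested. Ybx1 itself stood at 239, 531 and 306 CPM in the controls and at 126, 55.3 and 9.66 CPM in D, E and F, without overlap. The sorted reporter gene Sox2 was detected in all 6 libraries, at 17.5 to 48.4 CPM in controls and 24.2 to 50.6 in Ybx1-KO. All 7 progenitor markers were detected in every library. Markers of other cells were also present: the summed level of 6 erythroid genes was 479 to 1167 CPM in controls and 151 to 900 in Ybx1-KO, that of 4 mesenchyme genes was 109 to 756 and 56.3 to 107, that of 5 neuron genes was 2790 to 4095 and 1087 to 2976, that of 4 endothelial genes was 17.8 to 39.7 and 11.5 to 34.1, and that of 4 microglia genes was 7.77 to 25.4 and 3.52 to 19.6. Their part in the values below was not tested, and in sorted bulk RNA fewer cells of a type cannot be told apart from less RNA in each cell. Library F stood apart, with 59.5% of its read pairs outside genes, against 30.6 to 46.7% in the other 5 libraries.

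The fitted log2 fold changes of the 50 members lay on both sides of 0. With edgeR's quasi-likelihood test and Benjamini-Hochberg adjustment over all 21330 genes tested, no member passed an adjusted p of 0.05, where 0% of all tested genes did, and the lowest adjusted p of a member was 0.450. No member had an unadjusted p below 0.05 either, whereas 1484 of all tested genes (6.96%) did so with higher values in Ybx1-KO and 909 (4.26%) with lower values. DESeq2 called 214 genes (1%), none of them a member, and limma-voom called 0 genes. Of the 36 Snord members, 17 had a positive and 19 a negative log2 fold change, with a median of −0.04. The 14 Snora members divided into 7 and 7, also with a median of −0.04. Over all tested genes the median was 0.31, with 61.3% on the higher side in Ybx1-KO. This baseline depended on library F. Over the 19784 tested genes that could be fitted without F, the median was 0.20 with all libraries and −0.16 without F. Of these, 8551 were on the higher side without F. The 50 members had −0.04 with all libraries and −0.10 without F. The errors were large beside these values, as the median standard error of a Snord member was 2.52 on the log2 scale and that of a Snora member 2.20.

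**Figure D1:**
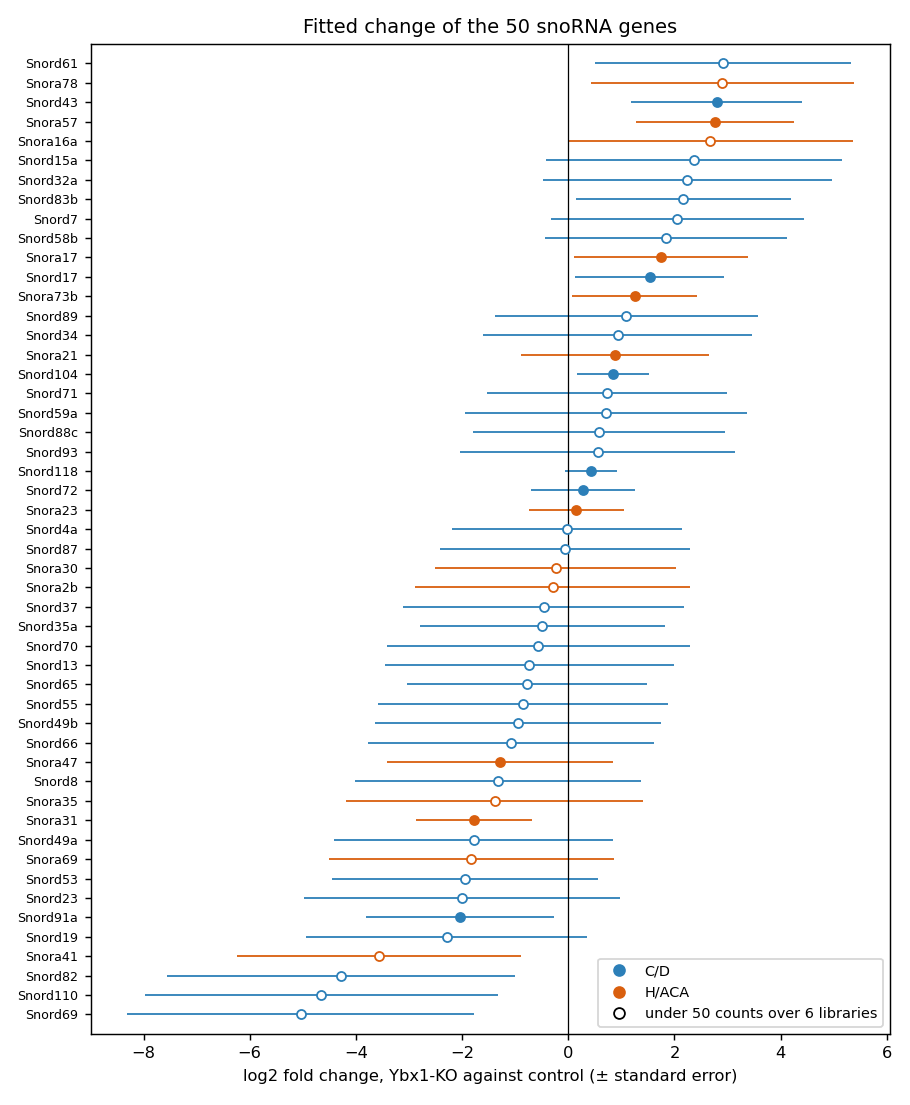
Log2 fold change between Ybx1-KO and control (x axis, with its standard error) for each of the 50 snoRNA genes, from edgeR over 3 libraries a group; blue is C/D, orange is H/ACA and open symbols have under 50 counts over the 6 libraries. Members lie on both sides of 0, from −5.04 for Snord69 to 2.92 for Snord61, and the bars of the rarer members are the widest. Snord69 met the count limit for members through the controls alone and Snord61 through Ybx1-KO alone.

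Abundance divided the members. The 13 members with 50 or more counts over the 6 libraries had 0.85 as their median log2 fold change, with 10 on the higher side in Ybx1-KO. Other genes annotated as snoRNA, of up to 300 bases and with 50 or more counts, numbered 29. Their median was 1.04, with 21 on the higher side (72.4%). The 37 members under 50 counts had −0.46, with 14 on the higher side. The members that reached 10 counts in only 1 genotype, 19 in controls and 3 in Ybx1-KO, were all under 50 counts. The choice of members thus favoured lower values among these rarer ones. The part of the lower depth of the Ybx1-KO libraries in this was not tested. These limits were set on the same counts, so the division is a description of the members.

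Snord118, also known as U8 and required for processing of the large-subunit ribosomal RNAs, was the most abundant member in total, with 1079 counts. It stood at 8.44, 6.93 and 18.4 CPM in A, B and C and at 14.4, 18.6 and 12.4 CPM in D, E and F. Control C lay as high as the Ybx1-KO libraries, and the groups overlapped. The log2 fold change was 0.43 ± 0.48 (SE, n = 3 libraries a group, edgeR adjusted p = 0.685).

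Snord104, a guide for ribose methylation of the large-subunit ribosomal RNA, had 780 counts. Its level was 7.10, 2.76 and 12.1 CPM in the controls and 25.7, 3.74 and 10.1 CPM in Ybx1-KO. Library D was the highest and the other Ybx1-KO libraries lay within the control range. Its log2 fold change was 0.85 ± 0.67 (SE, edgeR adjusted p = 0.552) and it was −0.20 without D and with the expression filter applied again. With E left out instead, the unadjusted p was 0.0353 with an adjusted p of 0.252 in edgeR. Per kilobase of transcript Snord104, at 147 CPM per kilobase averaged over the 6 libraries, was above the longer Snord118 at 97.7. Together these 2 genes held 59.3% of all Snord counts.

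The next most abundant C/D members were Snord72, Snord17, Snord43 and Snord91a. Snord72, in an intron of the ribosomal protein gene Rpl37, was at 3.26, 2.48 and 2.44 CPM in controls and at 5.10, 2.39 and 2.42 CPM in Ybx1-KO. D lay above all controls and E and F just below the lowest of them, and the log2 fold change of 0.28 ± 0.98 (SE, edgeR adjusted p = 0.911) turned to −0.18 without D.

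Snord43, a guide for the small-subunit ribosomal RNA that lies in an intron of Rpl3, was at 0.815, 0.140 and 0.203 CPM in the controls and at 5.10, 0.415 and 2.70 CPM in Ybx1-KO. D and F lay above every control, while E lay between the controls. Its mean was 0.386 ± 0.373 CPM in controls and 2.74 ± 2.34 in Ybx1-KO (SD, n = 3), and its log2 fold change of 2.80 ± 1.61 (SE) had an edgeR adjusted p of 0.460. Leaving out D gave 1.98 and leaving out A gave 3.94. DESeq2 gave an adjusted p of 0.261.

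Among the C/D members, 2 lay higher in every Ybx1-KO library than in any control (5.56%), beside 4.99% of all tested genes, and 2 lay lower throughout, beside 8.16% of all tested genes. For the C/D class these shares were near or under those of all genes. The higher pair was Snord17 and Snord61. Snord17, one of the longest C/D snoRNAs, stood at 0.863, 1.12 and 0.559 CPM in controls and at 4.31, 1.25 and 1.85 CPM in Ybx1-KO. E was only slightly above control B. The log2 fold change was 1.53 ± 1.40 (SE, edgeR adjusted p = 0.610), and 0.86 without D.

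Snord61, a guide for the small-subunit ribosomal RNA in an intron of the RNA-binding protein gene Rbmx, stood at 0.192, 0 and 0.152 CPM in controls and at 2.27, 0.208 and 0.284 CPM in Ybx1-KO. The separation rested on D, since E and F lay at levels below what 3 counts show in those libraries. Its log2 fold change was 2.92 ± 2.41 (SE, edgeR adjusted p = 0.571), and 1.05 without D.

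The lower pair was Snord91a and Snord69. Snord91a, in an intron of Tsr1, a gene for a factor in ribosome assembly, was at 1.49, 1.36 and 2.69 CPM in controls and at 0, 0.623 and 0.710 CPM in Ybx1-KO. Each Ybx1-KO library lay below B, the lowest control. The log2 fold change was −2.04 ± 1.77 (SE, edgeR adjusted p = 0.590). Snord69, which lies in an exon of Gnl3 in this annotation, so that its counts can hold reads of that gene, had 17 counts in controls and 0 in all Ybx1-KO libraries. Snord110 and Snord82, in introns of Nop56 and Ncl, had 13 and 10 counts in controls, none of them in C, and were also at 0 in every Ybx1-KO library. These 3 met the limit of 10 counts through the controls alone, so their lower side was set by the choice of members and supports nothing. Of the 50 members, 19 reached 10 counts in the controls and not in Ybx1-KO, and 3, Snord61 and Snora78 among them, the other way round.

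**Figure D2:**
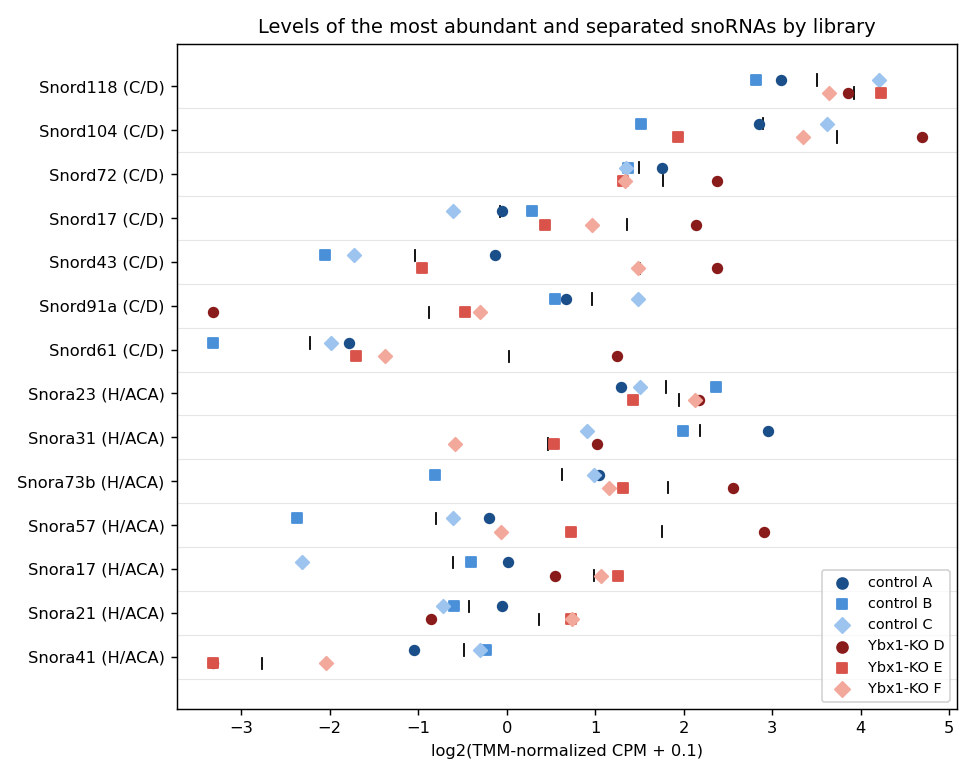
TMM-scaled CPM, as log2(CPM + 0.1), of the 6 most abundant C/D and 6 most abundant H/ACA members and of the other named members that did not overlap between the groups, in each library; vertical ticks are group means and the points at the far left are libraries at 0. Snora17 shows separate groups, Snord104 and Snora57 are highest in D, and Snora31 ranges from 7.63 CPM in A to 0.568 CPM in F.

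Among the H/ACA members, 4 of 14 lay higher in every Ybx1-KO library than in any control (28.6%), beside 4.99% of all tested genes, and 1 lay lower (7.14%), beside 8.16%. The higher members were Snora57, Snora73b, Snora17 and Snora78, and without F the same 4 were above, beside 10.3% of all tested genes, which in that comparison need only 2 libraries above 3. With 14 members these counts were small, and none of the 4 passed an adjusted p of 0.05. Snora78 had 5 counts in controls and 15 in Ybx1-KO, so it met the limit of 10 counts through Ybx1-KO alone. Its place among the 4 was favoured by the choice of members and supports nothing.

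Snora57, which guides a site in the small-subunit ribosomal RNA, stood at 0.767, 0.0936 and 0.559 CPM in controls and at 7.37, 1.56 and 0.853 CPM in Ybx1-KO. Its highest value was in D, and F exceeded control A only narrowly. It had the lowest p of any member in edgeR, 0.0815 with an adjusted p of 0.450, and a log2 fold change of 2.76 ± 1.49 (SE). The log2 fold change was 1.34 without D, with an edgeR adjusted p of 0.771, and 3.20 without F, with 0.219.

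Snora73b, one copy of U17, which takes part in cleavage of the ribosomal precursor, stood at 1.97, 0.468 and 1.88 CPM in controls and at 5.78, 2.39 and 2.13 CPM in Ybx1-KO. E and F lay just above the highest control. The log2 fold change was 1.25 ± 1.17 (SE, edgeR adjusted p = 0.617), and 0.65 without D. It lies in an intron of Rcc1 and overlaps an exon of Gm17300 on the other strand, so its counts are uncertain if strand was not used in counting. The other U17 copy, Snora73a, had 3 counts in all and is no member.

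Snora17 was at 0.911, 0.655 and 0.102 CPM in controls and at 1.36, 2.28 and 1.99 CPM in Ybx1-KO, and here D was the lowest of the 3. Its log2 fold change was 1.74 ± 1.64 (SE, edgeR adjusted p = 0.618). Snora78, in an intron of Snhg9, was rare, with 0.0959, 0.0468 and 0.102 CPM in controls and 0.227, 0.208 and 1.56 CPM in Ybx1-KO. Its D and E values were under the level of 3 counts.

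The one H/ACA member below all controls, Snora41, in an intron of the translation factor gene Eef1b2, stood at 0.384, 0.749 and 0.711 CPM in controls and at 0, 0 and 0.142 CPM in Ybx1-KO. Its mean was 0.615 ± 0.201 CPM in controls and 0.0474 ± 0.0820 in Ybx1-KO (SD, n = 3). The log2 fold change was −3.56 ± 2.68 (SE, edgeR adjusted p = 0.535). The fitted value without F, where both remaining Ybx1-KO libraries were at 0, was −6.32 with an edgeR adjusted p of 0.351. With 38 counts in controls and 1 in Ybx1-KO, Snora41 met the count limit for members through the controls alone. Its lower side was favoured by the choice of members and supports nothing.

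The most abundant H/ACA members moved in different ways. Snora31, a guide for the large-subunit ribosomal RNA within an intron of Tpt1, was at 7.63, 3.88 and 1.78 CPM in controls and at 1.93, 1.35 and 0.568 CPM in Ybx1-KO. The controls spanned a wide range and the lowest of them lay within the Ybx1-KO range. The log2 fold change was −1.78 ± 1.09 (SE, edgeR adjusted p = 0.477), and −1.13 without A. Snora23, which also guides the large-subunit ribosomal RNA and lies in an intron of Ipo7, was at 2.35, 5.05 and 2.74 CPM in controls and at 4.42, 2.60 and 4.26 CPM in Ybx1-KO. The groups overlapped fully, with a log2 fold change of 0.15 ± 0.89 (SE, edgeR adjusted p = 0.950). Snora21, in an intron of Rpl23, was at 0.863, 0.562 and 0.508 CPM in controls and at 0.454, 1.56 and 1.56 CPM in Ybx1-KO, with D the lowest library.

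Summed over its 36 members, the C/D class stood at 32.3, 21.5 and 41.7 CPM in controls and at 69.4, 32.2 and 37.1 CPM in D, E and F. D was the only library outside the control range. The group means were 31.8 ± 10.1 and 46.2 ± 20.2 CPM (SD, n = 3), a ratio of 1.45, and the Ybx1-KO mean without D was 34.6. D held the highest value of 15 Snord members. Leaving out Snord118 and Snord104 made the ratio 1.35. The other Snord members then summed to 16.7, 11.8 and 11.1 CPM in controls and to 29.3, 9.87 and 14.6 CPM in D, E and F, with overlap. The H/ACA class summed to 17.2, 15.0 and 9.81 CPM in controls and to 22.3, 14.02 and 15.5 CPM in Ybx1-KO. The ratio of group means was 1.23. Leaving out Snora23 and Snora31, a step chosen after seeing the data, made it 1.97. The other 12 members then summed to 7.24, 6.08 and 5.28 CPM in controls and to 16.0, 10.1 and 10.7 CPM in Ybx1-KO. This sum was higher in each Ybx1-KO library than in any control, although only 4 of the 12 were so one by one. It leaves out Snora31, with −1.78, and holds Snora57, Snora73b and Snora17, named above for not overlapping. Those stood at 7.37, 5.78 and 1.36 CPM in D and at 0.853, 2.13 and 1.99 CPM in F. The separation of the sum is therefore in part theirs. No test was made of a summed level. When the same counts were set against read pairs outside genes, F was the lowest of all libraries in both classes, at 6.68 Snord and 2.79 Snora counts per 1000000 such pairs.

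**Figure D3:**
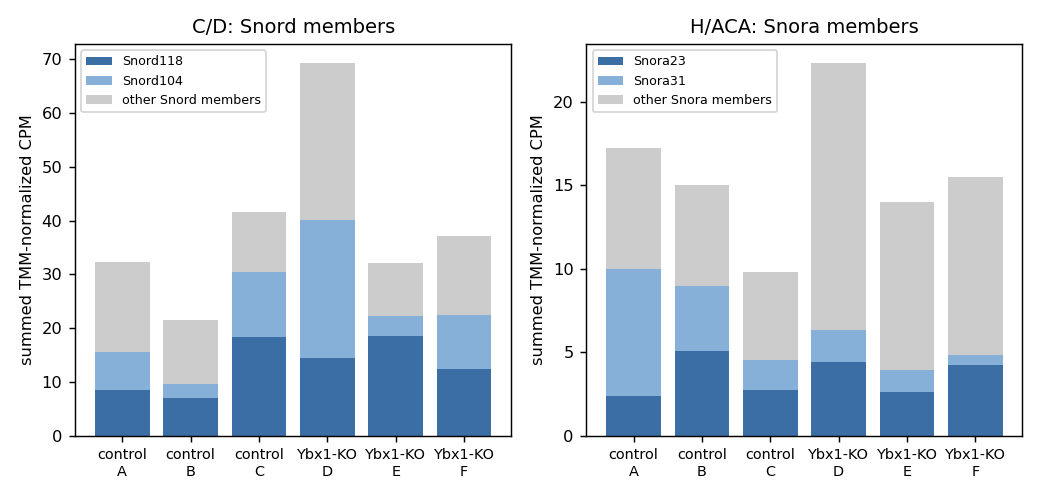
Summed TMM-scaled CPM of the C/D (left) and H/ACA (right) members in each library, as bars from 0 with the 2 most abundant members of each class shown apart. D has the highest C/D sum, 69.4. The grey part of the H/ACA bars is larger in D, E and F than in the controls, whereas that of the C/D bars overlaps between the groups.

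The signs of intronic members and of their hosts matched as often as they differed. In the annotation 40 members lay in an intron of a gene on the same strand, in 35 hosts, and 38 of them had a host that was tested. Member and host had the same sign of log2 fold change in 19 of 38 cases and opposite signs in the other 19. Spearman's rho over the 38 members was 0.13, as a description across genes that share libraries and in part hosts. Of 33 tested hosts, 2 had an unadjusted p below 0.05 in edgeR with higher values, a share near the 6.96% of all tested genes. These were Rcc1, which loads Ran with nucleotide, and AA465934. Rcc1 stood at 15.1, 16.6 and 18.4 CPM in controls and at 73.8, 26.6 and 31.4 CPM in Ybx1-KO, with a log2 fold change of 1.40 beside 1.25 for its member Snora73b. AA465934 had 2.18 and its member Snord7 had 2.05. In Rpl3 the member and host went opposite ways, since Rpl3 had −0.92 while its members Snord43 and Snord83b had 2.80 and 2.17.

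Ribosomal protein genes hosted 12 members in 9 genes. Rpl13a, the host of Snord32a, Snord34 and Snord35a, had a log2 fold change of 0.73 and its members 2.24, 0.93 and −0.49. Each of these members had 37 counts or fewer, and library F had none of any of them. A neighbour in the same gene, Snord33, was at 0 in all 6 libraries. The noncoding gene 2410006H16Rik held Snord49a, Snord49b and Snord65, at −1.78, −0.94 and −0.78, while its own exons had 0.28. The log2 fold changes of these members had standard errors above 2.

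**Figure D4:**
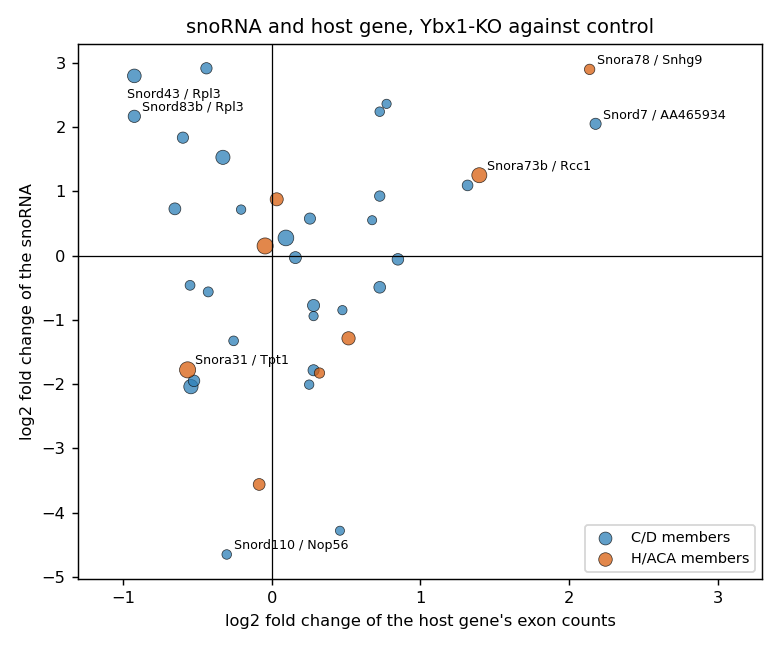
Log2 fold change of 38 snoRNAs (y axis) against that of the exon counts of the gene that holds them in an intron (x axis); point area grows with the log of the counts. Points fall in all 4 quadrants, with 19 in the 2 where both have the same sign.

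The lengths of the members ran from 64 to 238 bases in the C/D class and from 128 to 205 in the H/ACA class. Such RNAs are near or below the size of the fragments that a total RNA library keeps, and a count on an intronic member can also come from the unspliced host, so a level here is not the amount of mature snoRNA. The 28 members of up to 100 bases had a median of −0.26 on the log2 scale and the 19 of over 100 and up to 150 bases had −0.23. All 3 longer members, Snord17, Snora73b and Snora23, had positive values, with a median of 1.25. Over all 50 members Spearman's rho of log2 fold change and length was 0.22, given as a description.

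Other short genes were set beside the members. Among 2366 other tested genes of up to 300 bases the median log2 fold change was 2.63, and among the 1212 of these with 10 or more counts, the limit set for members, it was 0.99. Other genes annotated as snoRNA with 10 or more counts, 162 in number, had a median of 1.09. Some of these genes had counts in F alone, so without F only 1079 of the 1212 and 144 of the 162 could be fitted. Over those same genes the medians were 0.66 and 0.78 with all libraries and −0.91 and −1.07 without F. The 50 members could all be fitted without F, and their median was −0.04 with all libraries and −0.10 without it. With 50 or more counts the other short genes, 277 in number, had a median of 0.56, and 0.61 without F. The part of F and of depth in the values of the members was not tested beyond this.

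**Figure D5:**
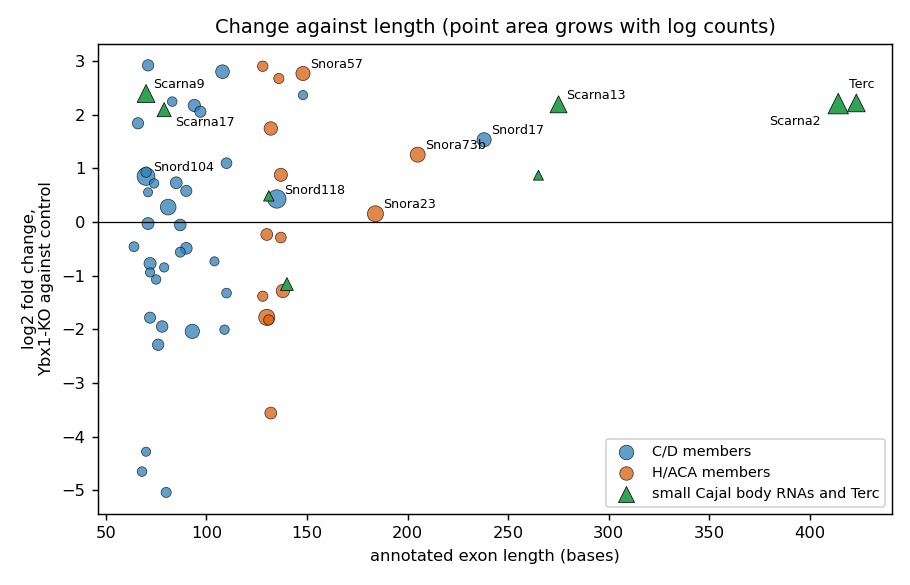
Log2 fold change (y axis) against annotated exon length in bases (x axis) for the 50 members and for the tested small Cajal body RNAs and Terc; point area grows with the log of the counts. The members scatter around 0 at every length below 150 bases, and Scarna2, Scarna13, Scarna9 and Terc lie near 2.

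No gene for a protein of the snoRNA particles was called. Of 20 genes for core and assembly proteins, 10 had a higher and 10 a lower mean, none passed an adjusted p of 0.05, and 1 had an unadjusted p below 0.05 on the lower side, a share near the 4.26% of all tested genes. This was Dkc1, the pseudouridine synthase of the H/ACA particle, at 56.4, 63.0 and 56.5 CPM in controls and at 22.5, 37.5 and 33.0 CPM in Ybx1-KO. All Ybx1-KO libraries lay below all controls, with a log2 fold change of −0.92 ± 0.37 (SE, edgeR adjusted p = 0.439). Of its partners in that particle, Gar1 was at 14.2, 15.9 and 21.1 CPM in controls and at 24.2, 21.8 and 24.3 CPM in Ybx1-KO, again without overlap but with an edgeR adjusted p of 0.576. Nhp2 had a log2 fold change of 0.68 and Nop10 one of 0.05. In the C/D particle the methyltransferase Fbl had 0.59, and its partners Nop56, Nop58 and Snu13 had −0.30, −0.43 and −0.19. Nop58 was lower in every Ybx1-KO library, at 87.3, 113 and 79.6 CPM in controls and at 66.7, 70.0 and 71.3 CPM, with an edgeR adjusted p of 0.586. In all 4 of the 20 lay below every control and 1 above, beside 8.16% and 4.99% of all tested genes.

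Larger log2 fold changes beside their errors were fitted for some related RNAs that are not members. Terc, the template RNA of telomerase, which ends in an H/ACA domain and binds Dkc1, stood at 3.36, 4.02 and 4.93 CPM in controls and at 26.1, 21.2 and 9.95 CPM in Ybx1-KO. Each Ybx1-KO library lay above all controls. Its log2 fold change was 2.22 ± 0.52 (SE), with an edgeR adjusted p of 0.235, and over 21 alternative fits the log2 fold change ranged from 1.87 to 2.54 and the adjusted p from 0.00430 to 0.786, below 0.05 in 4 of them. Among 9 genes for small Cajal body RNAs, which guide modification of spliceosomal RNAs, 7 were tested, 6 of these were higher and 3 had an unadjusted p below 0.05, all higher, beside 6.96% of all tested genes. Scarna2 stood at 13.4, 13.6 and 36.8 CPM in controls and at 189, 66.6 and 37.5 CPM in Ybx1-KO, where F lay just above control C. Its log2 fold change was 2.20 ± 0.57 (SE, edgeR adjusted p = 0.287). Scarna9, with 2.73, 3.56 and 6.25 CPM in controls and 36.9, 7.68 and 21.3 CPM in Ybx1-KO, had 2.39 ± 0.58 (SE, edgeR adjusted p = 0.260). Scarna13 was at 1.73, 1.83 and 4.93 CPM in controls and at 25.9, 5.92 and 6.96 CPM in Ybx1-KO, with 2.19 ± 0.71 (SE, edgeR adjusted p = 0.401). Without D the log2 fold changes were 1.29, 1.79 and 1.19, with edgeR adjusted p-values of 0.168, 0.136 and 0.491. Over 21 alternative fits Scarna2 ranged from 1.24 to 2.86, Scarna9 from 1.68 to 2.89 and Scarna13 from 1.10 to 2.86, and each had adjusted p-values up to 0.786. The adjusted p was below 0.05 in 5, 4 and 2 of these fits. Whether these RNAs differ from the members was not tested.

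Most of the remaining symbols were silent at this depth. Of the 88 that missed the limit, 71 had no count in any library, 14 had 1 to 6 counts and 3 had 7 to 9. The imprinted brain cluster Snord116 had 17 copies in the tables, of which 14 were at 0, with 9 counts over all copies and libraries, and its neighbours Snord64 and Snord107 had none. The near-identical copies share reads, so that reads placed at several of them may not have been counted. Of the RNAs for ribosomal precursor cleavage, Snord22 and Snord14a, Snord14c, Snord14d and Snord14e were at 0, and Snord13, which acts in maturation of the small subunit, was a member with 10 counts, at 0.234 and 0.152 CPM in B and C and 0.113 and 0.104 CPM in D and E, and at 0 in A and F. The 9 members with 10 to 12 counts, just inside the limit, were Snord13, Snord15a, Snord23, Snord49b, Snord55, Snord59a, Snord66, Snord82 and Snord93, and all of them had no count in F. Snora19, Snora20 and Snord116l12 fell just outside it with 7 to 9 counts.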

How the data were processed

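RNA was sequenced from Sox2-eGFP-positive NPCs of E13.5 neural tubes, 3 control and 3 Ybx1-KO libraries, with paired reads of 100 cycles on 1 of 2 sequencer models. The authors counted read pairs on genes of a GENCODE annotation with HTSeq 0.6.1p1 (mm10, GRCm38.p5 in the submitters' processing notes) and deposited raw counts per gene symbol for each library, without normalization or filters. The aligner of the RNA-seq reads and the strand setting are not given in the sources used here. No columns were left unused (0). Rows of the counter that name no gene were kept out of library sizes. They held 30.6 to 59.5% of read pairs as outside genes.

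Counts were scaled by TMM and tested with edgeR 4.0.16 (quasi-likelihood, Benjamini-Hochberg adjustment) in R 4.3.3 over genes whose mean FPKM exceeded 1 in at least 1 group. All 50 members passed this filter. A gene was called at an adjusted p under 0.05 with over 1.5-fold change. Lengths, positions, hosts and sequences came from GENCODE M21 (GRCm38), where 47624 of 51733 symbols matched by symbol and 359 by an older one. Members lie on many chromosomes, and a host is the gene on the same strand with the member in an intron. Alternatives were limma-voom (limma 3.58.1), DESeq2 1.42.0, other scalings, filters, membership limits and leaving out each library. Scripts were tested on simulated data. Figures were drawn with matplotlib 3.10.9. The common biological coefficient of variation was 0.800. Read pairs carry no molecular identifiers, so floors of 3 counts cover counting error only. Named genes were the 6 most abundant members of each class, up to 3 per class and direction without overlap and with 30 or more counts, a list of cleavage, imprinted and Rpl13a snoRNAs, hosts of 3 or more members, core particle genes and Terc. Snora78, Snord69, Snord110, Snord82, Snord83b, Snord7 and the Scarna genes were named after their values were seen. The members and lists were chosen with earlier results of these data known.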

Additional observations from a re-analysis of the deposited data

Results flagged for a closer look

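Ybx1-KO library F had 8.24 read pairs outside genes for each count on genes, in rows of the tables that no comparison used, whereas the controls had 1.52 to 2.00 and D and E 1.41 and 1.79. In F, 31 of the 50 members had a count.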

How the results depend on the processing

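No member reached an adjusted p below 0.05 in any of the 21 alternative fits. Of 18 named snoRNAs, 11 kept the sign of their log2 fold change in every alternative run.

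Counts of genes called were 0 in the reported fit, 214 with DESeq2, 193 without a filter on low counts, and between 0 and 946 when libraries were left out. The median of the Snord members was 0.20 with limma-voom, 0.33 with total count scaling, 0.51 with a CPM above 1 in 3 libraries, 0.70 with filterByExpr, 0.64 for members with 50 or more counts, 0.35 for members that overlap no exon of another gene, and −0.37 to 0.66 with a library left out. For the Snora members it was 0.43 with total count scaling, 1.34 with the CPM filter, 0.94 with filterByExpr, 0.88 with 50 or more counts, 0.30 with no minimum, and −0.28 to 0.49 with a library left out. At an unadjusted p below 0.05, 1 Snora member was higher with the CPM filter, DESeq2 or filterByExpr, and 1 Snord member with DESeq2 or filterByExpr. With a library left out, these counts ranged from 0 to 1 in the Snord members (higher) and in the Snora members (higher and lower). In the reported fit 6.96% of all tested genes were higher at that limit and 4.26% lower. Shares for the alternative fits are not given here. Snord members above all controls numbered 1 with total count scaling or 50 or more counts, and 2 to 5 with a library left out. Those below numbered 1 with 50 or more counts or without exon overlap, and 2 to 6 with a library left out. Snora members below numbered 0 with 50 or more counts and 1 to 3 with a library left out. Fewer libraries separate more easily: without F, 10.3% of all tested genes lay above all controls and 14.6% below. These counts are thus no result about the members. Without the most abundant pair of each class, the ratio of summed CPM was 1.97 for Snora and 1.35 for Snord.

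With a library left out, the log2 fold change ranged from −0.20 to 1.42 for Snord104, −0.26 to 0.55 for Snord72, −0.076 to 0.56 for Snora23, −1.56 to 2.07 for Snord34, −1.89 to 0.069 for Snord35a, −0.21 to 3.32 for Snord32a, −0.34 to 0.065 for Snu13 and −0.30 to 0.49 for Nop10. Snord13 reversed to 0.26 with limma-voom, and Nop10 to −0.10 without a filter on low counts. The causes were not tested. Alternatives that left out a library and filtered again, dropped the most abundant pair or used read pairs outside genes were chosen after seeing the data. No paired analysis was possible because the labels give the groups no shared replicate numbers. Of the 50 members, 37 had under 50 counts, which limits the precision of their values.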
